A study of Homo sapiens
Mus musculus with 5 samples.

Results

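The interferon-stimulated genes described here are 38 genes of the antiviral response, chosen by name as a list and looked up in the human table, read as the cancer cells, and by the same symbol in the mouse table, read as the host. All 38 were found among 25524 human genes, and 31 were found among 24628 mouse genes. IFI6, IFIT5, OAS1, OASL, HERC5, SAMD9 and TRIM22 had no mouse gene of the same symbol. Of the 38 human members, 33 reached 1 RPKM (a read count divided by gene length and by the species' total) in at least 2 libraries and were tested, as were all 31 mouse members.

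The tumors grew from H2030-BrM3, a derivative of a human lung adenocarcinoma line, in athymic nu/nu mice, a strain without a thymus that is short of mature T cells and keeps its innate immune cells. The study asked how these cells differ between brain and lung, and gave 3 libraries of brain tumors (BrMet) and 2 of orthotopic lung tumors (LuOt). All 5 share the cell line and the strain, the lung tumors were seeded by injection of cells into the trachea, and the labels give neither the route of the brain tumors nor age or treatment. A single cell line stands for the cancer, and nothing in the labels tells whether each tumor had an animal of its own, so a p-value here speaks only of the scatter among these 5 libraries.

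Type I interferons bind the receptor IFNAR1 and IFNAR2 on almost any nucleated cell, and type III interferons bind IFNLR1 with IL10RB, mainly on epithelium. The kinases JAK1 and TYK2 then phosphorylate factors such as STAT2, which acts with IRF9 to switch on a shared set of antiviral genes. The products bind, modify or degrade foreign RNA, block virus entry, or sense RNA and amplify the response. The set is often read as a record of interferon exposure in tumors, where cancer cells and surrounding host cells can each respond.

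Human reads numbered 2445904 to 8419288 per library. Mouse reads numbered 2710983 to 8636094 in the brain tumors, 231156 in lung tumor 1 and 5295159 in lung tumor 2, so host values of lung tumor 1 rest on few reads. Read numbers here are recovered from the RPKM values and are the smallest that these allow. Human reads were 22.1% to 75.6% of the total in the brain tumors, 96.6% in lung tumor 1 and 41.4% in lung tumor 2. The host tissue matched its label: the 6 astrocyte, 6 neuron and 6 oligodendrocyte genes of the mouse table were each higher in all 3 brain tumors. The 6 lung epithelium genes summed to 976 RPKM in lung tumor 1 and 64702 in lung tumor 2, against 50.5 to 92.3 in the brain tumors. In the human table KRT8, KRT18, MUC1 and EPCAM were present in every library, while KRT7 stayed at or under 5.36 RPKM and KRT19 at or under 0.458.

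In the cancer cells no interferon-stimulated gene passed the test between brain and lung tumors, and for most members the 2 lung tumors stood on opposite sides of the brain tumors. For 20 of the 33 tested members lung tumor 2 lay above and lung tumor 1 below all brain tumors, as for 9.89% of all tested genes. Lung tumor 2 had the highest level of 26 members, against 22.6% of all genes, and lung tumor 1 the lowest of 23, against 41.0%. Some of these rest on few reads in lung tumor 1, such as RSAD2 on 0 and IFITM1 on 2. By limma on log2(RPKM + 1), 0 of 33 members passed an adjusted p of 0.05, and 1 of 14423 genes, or 0.00693%, did. At an unadjusted p under 0.05 there were 0 members and 1517 genes. With voom on the recovered reads 0 members passed as well, and 0 members and 1671 genes had an unadjusted p under 0.05. The median difference, brain minus lung, was 0.02 on the log2 scale over the members and 0.09 over all tested genes, and the lowest adjusted p of a member was 0.479. The groups did not overlap for 3 members, ISG20, IFITM2 and IFITM3, all lower in the brain tumors, where 12.3% of all genes were lower without overlap. No member was higher without overlap, against 17.4% of all genes.

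**Figure D1:**
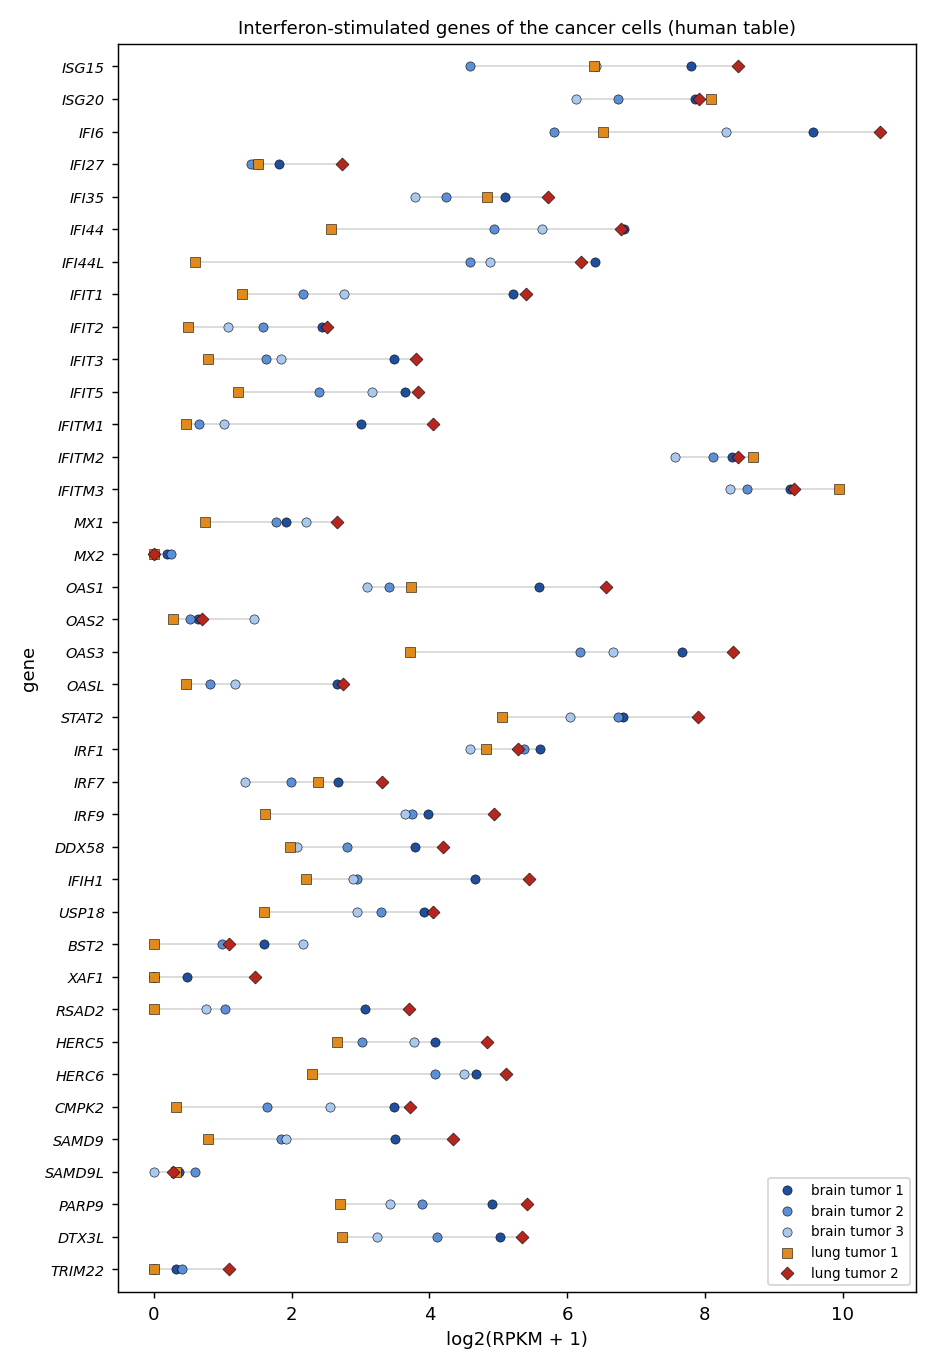
Each row is 1 human member and each point 1 library, on a log2(RPKM + 1) axis: circles are the 3 brain tumors, squares lung tumor 1 and diamonds lung tumor 2, and the grey line spans the 5 values. In 26 of the 33 tested rows the diamond lies farthest right, and in 23 the square lies farthest left, except for rows such as IFITM2, IFITM3 and ISG20, where both lie right of the circles.

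Of the 6 signal factors, 4 had lung tumor 1 below all brain tumors and lung tumor 2 above them. STAT2, which forms the type I interferon transcription factor, had 111, 106 and 65.2 RPKM in the brain tumors, 32.3 in lung tumor 1 and 239 in lung tumor 2. IRF9, its DNA-binding partner, had 14.8, 12.5 and 11.5 in the brain tumors, 2.05 in lung tumor 1 and 29.7 in lung tumor 2. The brain tumors spanned 1.71-fold for STAT2 and 1.28-fold for IRF9, with lung tumor 1 below and lung tumor 2 above all of them. PARP9 and DTX3L, which form a complex that modifies histones, took the same order, DTX3L with 31.7, 16.3, 8.42, 5.61 and 39.5 RPKM. IRF1, a factor that interferon gamma induces strongly, had 47.6, 40.4 and 23.0 in the brain tumors, against 27.4 and 38 in the lung tumors. Both lung tumors lay within the range of the brain tumors. IRF7, which drives interferon alpha genes, stayed at or under 8.98 RPKM in all libraries.

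ISG15, the ubiquitin-like modifier that is joined to proteins during the response, had 222, 23.1 and 84.4 RPKM in the brain tumors, 83.1 in lung tumor 1 and 358 in lung tumor 2. Brain tumors 2 and 3 and lung tumor 1 were low, and brain tumor 1 and lung tumor 2 were high, so that the groups overlapped. Its log2 difference, brain minus lung, was -1.17 (SE 0.91, limma adjusted p = 0.61). The ligase HERC5 and its relative HERC6, and USP18, which removes ISG15 and blocks the receptor, were lower in lung tumor 1 (5.34, 3.89 and 2.04 RPKM) than in any brain tumor. In lung tumor 2 the 3 genes reached 27.5, 33.7 and 15.5 RPKM, above every brain tumor.

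The IFIT proteins bind foreign RNA ends and stop its translation. IFIT1 had 35.9, 3.47 and 5.79 RPKM in the brain tumors, 1.43 in lung tumor 1 and 41.2 in lung tumor 2. Brain tumor 1 and lung tumor 2 were high and the other 3 libraries low. IFIT2, IFIT3 and IFIT5 were each lowest in lung tumor 1 (0.413, 0.725 and 1.34 RPKM) and highest in lung tumor 2 (4.71, 13.0 and 13.3).

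The small membrane proteins IFITM2 and IFITM3, which block virus entry by fusion, did not follow this order. IFITM3, with the highest mean level of the members, had 602, 389 and 327 RPKM in the brain tumors, 985 in lung tumor 1 and 625 in lung tumor 2. IFITM2 had 334, 278 and 189 in the brain tumors, against 414 and 354 in the lung tumors. Both lung tumors lay above all brain tumors, with log2 differences of -0.88 (SE 0.40, limma adjusted p = 0.481) and -0.56 (SE 0.36, adjusted p = 0.557), which did not pass. IFITM1, next to them in the genome, was far lower, at 7.06, 0.580 and 1.02 in the brain tumors, 0.380 in lung tumor 1 and 15.6 in lung tumor 2. BST2, or tetherin, which holds budding viruses at the membrane, was at 3.49 RPKM or less in every library and at 0 reads in lung tumor 1, which allows up to 0.973 RPKM (3 reads, counting error only).

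Among the direct effectors, OAS3, which makes the signal that activates RNase L, had 202, 72.2 and 101 RPKM in the brain tumors, 12.1 in lung tumor 1 and 338 in lung tumor 2. OAS1, an enzyme of the same kind, had 47.2, 9.62 and 7.58 in the brain tumors, 12.3 in lung tumor 1 and 94.1 in lung tumor 2. Lung tumor 2 stood above every brain tumor for both, while lung tumor 1 was below them for OAS3 and among them for OAS1. ISG20, an exonuclease, had 230, 106 and 69.0 RPKM in the brain tumors, against 271 and 239 in the lung tumors, both above all brain tumors. RSAD2 (viperin), CMPK2, SAMD9, OASL and MX1, the GTPase that traps viral nucleocapsids, had their lowest values in lung tumor 1, at 0 to 0.731 RPKM. RSAD2 had 0 reads there, which allows up to 0.765 RPKM at 3 reads. That exceeds its 0.685 in brain tumor 3, so their order was not measurable at this depth. CMPK2, OASL and MX1 rested on 2, 4 and 4 reads in lung tumor 1. In lung tumor 2 all of these genes, RSAD2 and SAMD9 included, had their highest level of the 5 libraries, between 5.33 RPKM for MX1 and 19.2 for SAMD9.

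Of the small IFI proteins, IFI6, a mitochondrial and endoplasmic reticulum protein, had 760, 55.2 and 317 RPKM in the brain tumors, 91.3 in lung tumor 1 and 1493 in lung tumor 2. Its brain tumors alone differed 13.8-fold between the highest and the lowest. IFI44L had 83.5, 23.1 and 28.5 RPKM in the brain tumors, 0.516 in lung tumor 1, where it rested on 3 reads, and 72.5 in lung tumor 2. IFI44, beside it on the chromosome, had 113, 29.6 and 48.8 RPKM in the brain tumors, 4.93 in lung tumor 1 and 109 in lung tumor 2. For both genes lung tumor 1 was low and lung tumor 2 lay within the brain range. IFI35, a partner of the regulator NMI, had 33.3, 17.9 and 12.9 RPKM in the brain tumors, against 27.5 and 51.6 in the lung tumors. The sensors of viral RNA DDX58 (RIG-I) and IFIH1 (MDA5) were lowest in lung tumor 1, at 2.94 and 3.61 RPKM, and highest in lung tumor 2, at 17.3 and 42.7.

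With each lung tumor set alone against the 3 brain tumors, the signs turned. Against lung tumor 1, 5 members were called higher in the brain tumors, IFI44L, IFI44, OAS3, IRF9 and HERC6, as were 8.42% of all tested genes, and 0 were called lower, against 4.78%. IFI44L differed by 4.69 on the log2 scale (limma adjusted p = 0.0227), IFI44 by 3.23 (0.0417), OAS3 by 3.13 (0.0281), IRF9 by 2.19 (0.026) and HERC6 by 2.13 (0.0284). In all, 23 members lay above lung tumor 1 in every brain tumor, where 44.9% of all genes did, and the members' median difference was 1.37 against 0.25 over all genes. Lung tumor 1 was above every brain tumor for 3 members, ISG20, IFITM2 and IFITM3, against 28.8% of all genes.

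Against lung tumor 2, 29 of 33 members lay below it in every brain tumor, where 30.4% of all genes did. The members' median difference was -1.21, against -0.01 over all genes. By limma 0 members were called, as were 0 of all genes, and 8 members and 1435 genes had an unadjusted p under 0.05. The 4 members that overlapped with lung tumor 2 were IFI44, IFI44L, IRF1 and BST2, named after their values were seen. A lone lung tumor is assumed in these fits to vary as the brain tumors do.

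**Figure D2:**
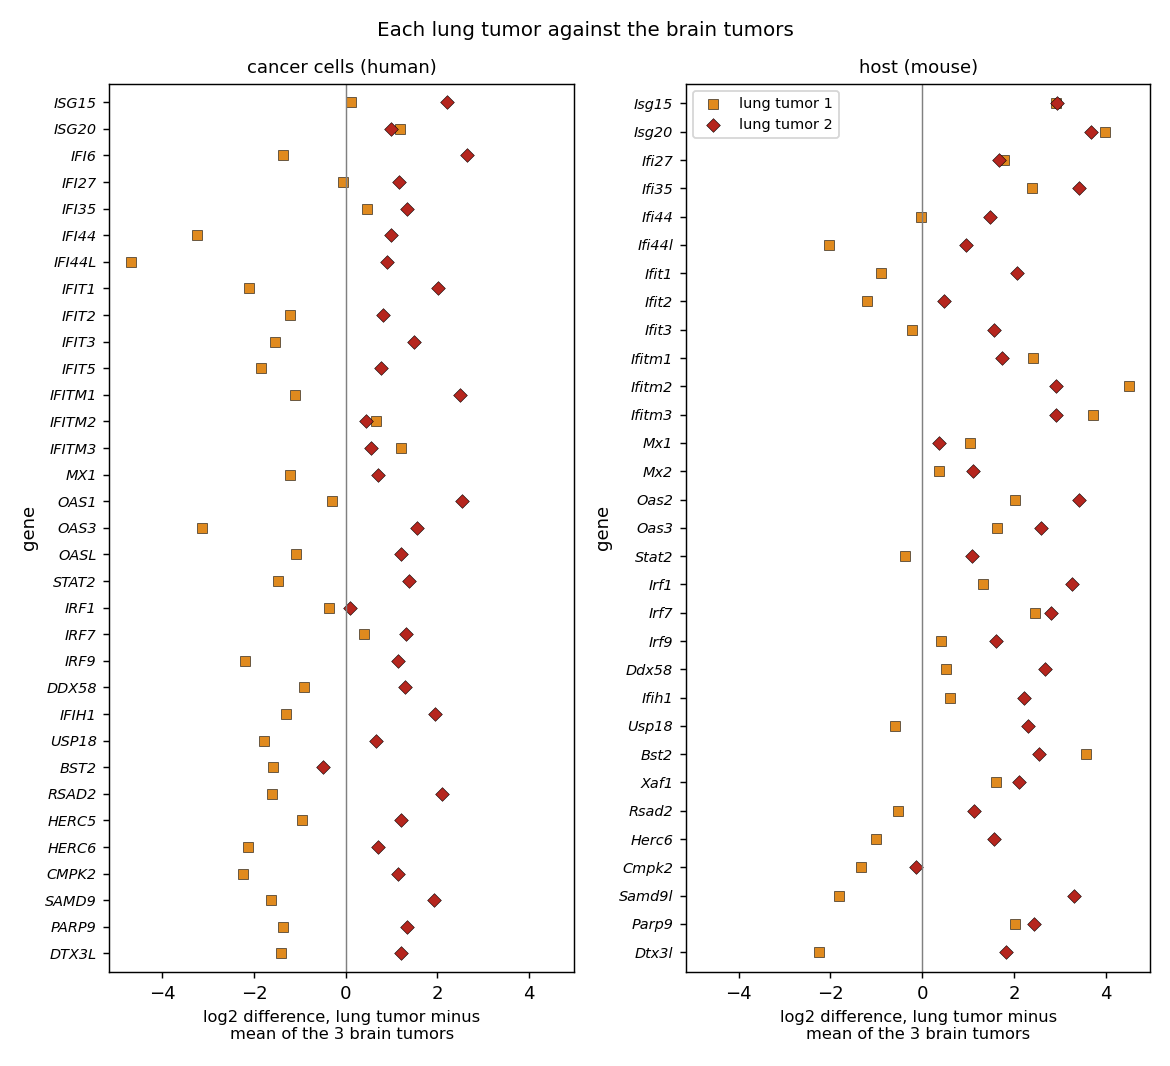
Each row is 1 tested member, human on the left and mouse on the right, and the points give lung tumor 1 (squares) and lung tumor 2 (diamonds) minus the mean of the 3 brain tumors, as log2 differences. In the human panel the squares lie mostly left of 0 (median brain minus lung 1.37) and the diamonds right of it (median -1.21), while in the mouse panel the diamonds lie right of 0 for 30 of 31 rows, with Cmpk2 the exception, and the squares on both sides.

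Between the lung tumors themselves the cancer cells differed by a median of -2.61 on the log2 scale over the members, lung tumor 1 minus lung tumor 2, against -0.30 over all tested genes. Of the 33 members, 27 were more than 1 log2 unit lower in lung tumor 1, as were 24.1% of all genes, and 0 were more than 1 unit higher, against 11.7%. IFI44L, OAS3, IFI44 and IFIT1 differed by -5.60, -4.69, -4.21 and -4.12. OAS3 rested on 81 reads in lung tumor 1 and 1294 in lung tumor 2, and IFI44 on 27 and 343. ISG20, IFITM2 and IFITM3 were 0.18, 0.22 and 0.66 higher in lung tumor 1. Long genes were lower in lung tumor 1 in general: the median over all genes was -0.43 at or above the median gene length and -0.16 under it. Over the members it was -2.71 and -2.00. A correction for gene length, chosen after seeing the data, pulls the median over all genes toward 0 by its construction. That median was then -0.04, and the median of the members was -2.00. With 1 library on each side this is a comparison of 2 libraries and has no replicate check.

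The brain tumors also differed among themselves. Brain tumor 1 had the highest level of the 3 for 31 of the 33 members, as for 30.9% of all tested genes. Its members lay a median of 1.06 above brain tumor 2 and 1.31 above brain tumor 3 on the log2 scale, against -0.02 and 0.05 over all genes. ISG15 was 9.61-fold, IFIT1 10.4-fold and IFI6 13.8-fold higher in brain tumor 1 than in brain tumor 2, while STAT2 (1.06-fold), MX1 (1.14-fold), IRF1 (1.18-fold) and IRF9 (1.18-fold) were near level. The exceptions to that order were MX1 and BST2, highest in brain tumor 3. For 25 members lung tumor 2 was the highest of all 5 libraries and brain tumor 1 the highest of the brain tumors, a pattern that 10.7% of all genes had.

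Several members lie in rows of related genes, given here in the RefSeq annotation of GRCh38, and neighbours could differ widely. On chromosome 12, OAS1 (112906962 to 112933219) and OAS3 (112938474 to 112973251) were expressed, but OAS2 (112978519 to 113011723) stayed at or under 1.74 RPKM. SAMD9 on chromosome 7 (93099518 to 93117979) reached 19.2 RPKM, whereas SAMD9L (93130056 to 93148385) stayed at or under 0.508. MX1 on chromosome 21 (41420558 to 41459214) reached 5.33, and MX2 (41362027 to 41409393) stayed at or under 0.184. IFIT2, IFIT3, IFIT1 and IFIT5 lie between 89302046 and 89420997 on chromosome 10 and shared 1 order of the lung tumors. OAS2, SAMD9L, MX2, XAF1 and TRIM22 are the 5 human members too low to be tested, with recovered reads between 0 and 10. The IFITM, IFIT and OAS genes resemble their neighbours in sequence, and the spans of PARP9 and DTX3L (447 bases) and of RSAD2 and CMPK2 (751 bases) overlap. How reads shared by such genes were assigned is not given, so values within these sets are uncertain.

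In the host the picture was different: 12 of the 31 mouse members were lower in the brain tumors than in the lung tumors, and none was higher. These were Isg15, Isg20, Ifi27, Ifi35, Ifitm2, Ifitm3, Oas2, Oas3, Irf1, Irf7, Bst2 and Xaf1. By role they were 3 of 4 entry inhibitors, 3 of 8 direct effectors, 3 of 5 small IFI proteins, 2 of 6 signal factors and 1 of 3 genes of the ISG15 system, with 0 of 3 IFIT genes and 0 of 2 RNA sensors. Of all 15431 mouse genes tested, 8.12% were called lower and 14.3% higher. The members' median difference, brain minus lung, was -1.42 on the log2 scale, against 0.08 over all genes. For 16 members all brain tumors lay below both lung tumors, as for 26.2% of all genes, and for 0 they lay above, against 30.0%. The number of calls rested on few libraries: it was 5, 2 and 4 without brain tumor 1, 2 or 3, and 10 and 13 without lung tumor 1 or 2. Ifitm3 and Isg20 were called under all 12 alternatives run for this comparison.

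Host Ifitm3 had 112, 75.5 and 51.2 RPKM in the brain tumors, against 1013 and 575 in the lung tumors. Its mean was 79.6 ± 30.7 (SD, n = 3) in brain and 794 ± 310 (n = 2) in lung, a 9.97-fold higher mean in lung and a log2 difference of -3.32 (SE 0.45, limma adjusted p = 0.006). Every brain tumor was far below both lung tumors. Ifitm2 fell as well, with 24.8, 14.3 and 13.2 in the brain tumors, against 405 and 133 in the lung tumors (log2 difference -3.72, SE 0.56, adjusted p = 0.00824). Ifitm1 had 20.1, 8.11 and 5.70 against 57.3 and 35.4 RPKM, below both lung tumors as well, and just missed the threshold (adjusted p = 0.051). Bst2 had 43.4, 34.9 and 9.94 in the brain tumors, against 309 and 150 in the lung tumors (log2 difference -3.06, SE 0.69, adjusted p = 0.0286). The call of Ifitm2 ended without brain tumor 2 or 3 (adjusted p = 0.0504 and 0.0565), and that of Bst2 without any 1 brain tumor or lung tumor 1 (0.0579 to 0.0847).

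Isg15 had 10.5, 6.85 and 2.40 RPKM in the brain tumors, against 50.2 and 50.4 in the lung tumors, a difference of -2.93 (SE 0.58, limma adjusted p = 0.0188). In lung tumor 1 this was 9 reads, and in lung tumor 2 it was 206. Isg20 had 3.86, 2.13 and 1.22 in the brain tumors, against 50.2 and 40.7 in the lung tumors, with a mean 18.9-fold higher in lung (log2 difference -3.84, SE 0.47, adjusted p = 0.00423). Isg20 rested on 9 reads in each brain tumor, 10 in lung tumor 1 and 185 in lung tumor 2. Both lung tumors were nearly level for Isg15, and every brain tumor was below them for both genes. The call of Isg15 ended without brain tumor 2 (adjusted p = 0.0769). Usp18 and Herc6, of the ISG15 system, overlapped between the groups, with Usp18 at 23.2, 15.6 and 2.85 against 6.62 and 56.4.

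Oas2 had 0.808, 1.15 and 0 RPKM in the brain tumors, against 5.40 and 15.8 in the lung tumors, where it rested on 4 and 266 reads (log2 difference -2.72, SE 0.61, limma adjusted p = 0.0273). Oas3 had 1.10, 0.608 and 0 against 3.68 and 8.06 (difference -2.12, SE 0.53, adjusted p = 0.038). Both were absent from the reads of brain tumor 3 and highest in lung tumor 2, and both calls ended without any 1 of the brain tumors (adjusted p = 0.0818 to 0.126). Irf7 had 21.3, 23.3 and 4.46 in the brain tumors, against 77.8 and 99.4 in the lung tumors (difference -2.63, SE 0.71, adjusted p = 0.0471). Irf1 had 23.5, 19.0 and 12.2 against 45.8 and 177 (difference -2.29, SE 0.63, adjusted p = 0.0499). The lung tumors lay above every brain tumor for both factors. The call of Irf1 ended without any 1 of the brain tumors (adjusted p = 0.113 to 0.172), and that of Irf7 without brain tumor 1, brain tumor 2 or either lung tumor (0.082 to 0.093).

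Ifi35 had 7.74, 4.63 and 1.83 RPKM in the brain tumors, against 26.4 and 54.6 in the lung tumors (difference -2.91, limma adjusted p = 0.0235). Ifi27, a mitochondrial protein, had 75.3, 58.8 and 32.5 against 185 and 170 (difference -1.74, adjusted p = 0.0338). Xaf1, a pro-apoptotic factor, had 12.9, 17.2 and 7.08 against 37.6 and 54.2 (difference -1.86, adjusted p = 0.0361). For all 3 the brain tumors lay below both lung tumors. The 3 calls ended without any 1 of the brain tumors (adjusted p = 0.05 to 0.117), and that of Ifi27 also without lung tumor 1 (0.0645) and that of Xaf1 without lung tumor 2 (0.0524). Parp9, among the 8 most abundant host members, had 23.7, 20.9 and 5.51 against 60.9 and 81.1 and did not pass (adjusted p = 0.0569).

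**Figure D3:**
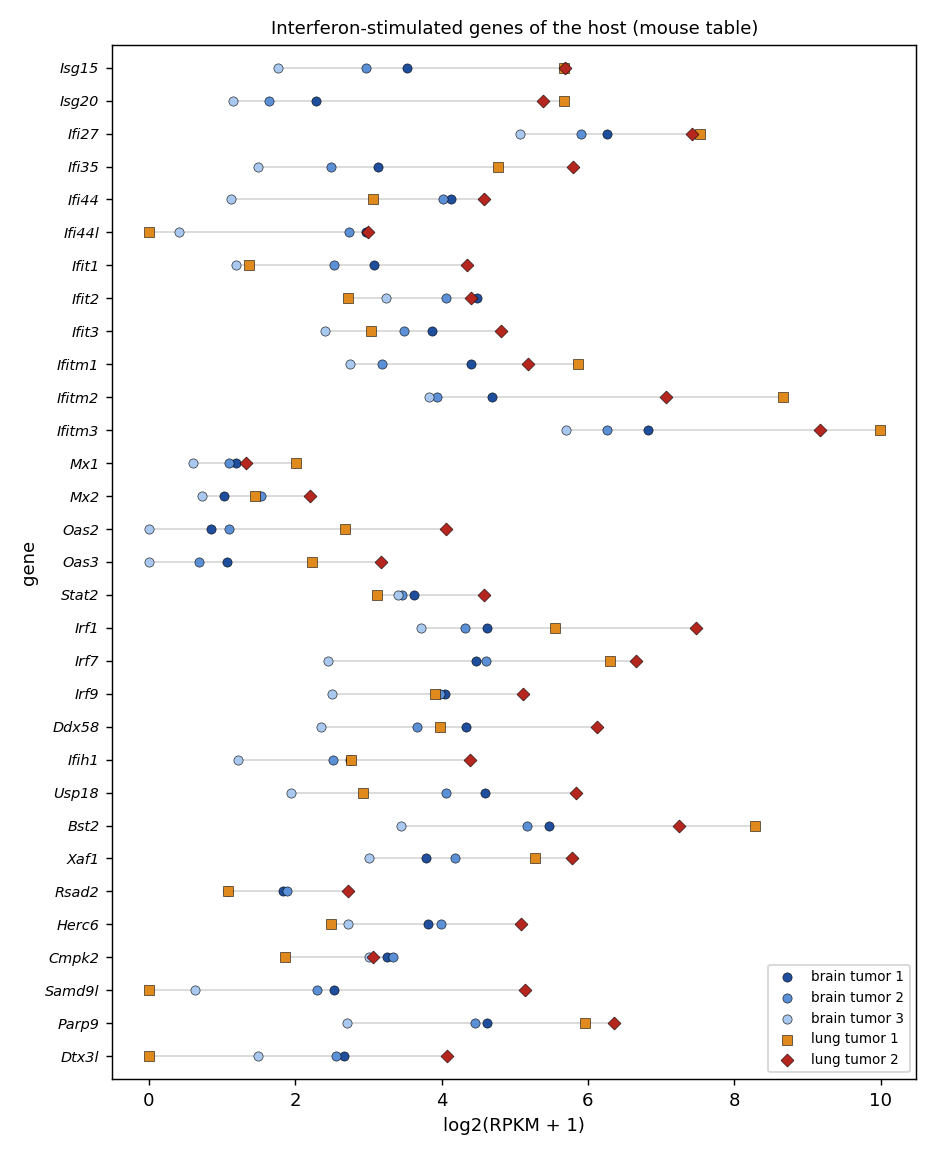
Each row is 1 mouse member and each point 1 library on a log2(RPKM + 1) axis, with circles for the 3 brain tumors, a square for lung tumor 1, a diamond for lung tumor 2 and a grey line over the 5 values. In 16 of 31 rows all circles lie left of both lung tumors, and the palest circle, brain tumor 3, is the lowest of the brain tumors in every row.

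None of the 3 IFIT genes passed the test, and whether they differ from the other members was not tested. Ifit1, Ifit2 and Ifit3 overlapped between the groups, Ifit2 with 21.4, 15.7 and 8.43 RPKM in the brain tumors, against 5.60 and 20.1 in the lung tumors. Cmpk2, an enzyme that supplies nucleotides, had 8.57, 9.09 and 7.09 in the brain tumors, 2.64 in lung tumor 1 and 7.40 in lung tumor 2. Ifit2, Cmpk2, Ifi44l and Dtx3l had the highest positive differences, 0.37, 0.74, 0.54 and 0.21, and none passed the test. Against lung tumor 2 alone, all brain tumors lay below it for Ifit1 and Ifit3. Samd9l, Dtx3l and Ifi44l had 0 reads in lung tumor 1, which allows up to 4.41, 3.19 and 9.23 RPKM at 3 reads. In lung tumor 2 they had 34.2, 15.8 and 6.99 RPKM. Against lung tumor 1 alone 11 members were called lower in brain and 2 higher, Cmpk2 and Dtx3l, where 20.3% and 33.3% of all genes were. The 2 higher calls rest on 1 and 0 recovered reads in lung tumor 1, and the levels that 3 reads would give there, 7.94 and 3.19 RPKM, exceed the lowest brain tumor of each gene. Every brain tumor lay below lung tumor 1 for 16 members and above it for 7, against 36.8% and 50.9% of all genes. Against lung tumor 2 alone 10 were lower and 0 higher, where 13.7% and 16.1% of all genes were, and 29 members lay below it in every brain tumor, against 44.2% of all genes, and 0 lay above it, against 36.8%. Between the lung tumors the host members differed by a median of -1.21, against -0.30 over all genes. After the length correction these medians were -0.60 and 0.16. Of the 31, 18 were more than 1 log2 unit lower in lung tumor 1, as were 31.6% of all genes, and 2 more than 1 unit higher, against 15.5%. With the length correction 11 were more than 1 unit lower, against 21.4%, and 3 more than 1 unit higher, against 24.1%. The lowest values were those of Samd9l (-5.14), Dtx3l (-4.07), Ifi44l (-3.00) and Ifit1 (-2.98), which had 0, 0, 0 and 1 recovered reads in lung tumor 1. For Ifi44l the level allowed there exceeds that of lung tumor 2, so that no difference was detectable at this depth.

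Brain tumor 3 had the lowest level of the brain tumors for all 31 host members, as for 46.8% of all tested genes. With median-ratio scaling brain tumor 3 was below brain tumor 2 for 30 of the 31. Its 12 called members ranged from 0 (Oas2 and Oas3) to 51.2 RPKM (Ifitm3). The same library had the lowest sum of the 12 microglia and macrophage symbols, which stand for 13 entries, 511 RPKM against 1822 and 1745 in brain tumors 1 and 2. The 12 entries that were tested were all lowest there among the brain tumors. The 6 endothelial genes were also all lowest there, with sums of 127 against 296 and 223. In bulk tissue fewer cells of a type and less RNA per cell cannot be told apart. The part of these cells in the result was not tested.

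Of the lists for other cell types, some were lower in the brain tumors as the host members were, and some were not. Neutrophil genes summed to 540 and 371 RPKM in the lung tumors and to 6.21 to 10.8 in the brain tumors, with 3 of 5 tested genes called lower in brain. Fibroblast genes summed to 16582 and 9563 against 164 to 840, with 4 of 6 called lower in brain. B and plasma cell genes summed to 32.4 and 99.5 against 0.428 to 1.13, with 4 of 4 called lower, and T cell genes to 29.5 and 14.6 against 1.42 to 4.32, with 0 of 2 called. Microglia and macrophage genes summed to 8259 in lung tumor 1 and to 1052 in lung tumor 2, with 0 of 12 called. Natural killer genes summed to 87.7 in lung tumor 2 but to 4.80 in lung tumor 1, where Ncr1 and Prf1 were at 0. They summed to 1.91 to 3.12 in the brain tumors, with 1 of 2 tested genes called lower in brain. Endothelial genes summed to 1554 in lung tumor 2, to 109 in lung tumor 1 and to 127 to 296 in the brain tumors. The 3 genes listed for plasmacytoid dendritic cells, which are potent makers of interferon alpha, overlapped between the groups in sum. They summed to 13.8, 11.2 and 6.03 RPKM in the brain tumors, 0 in lung tumor 1 and 6.45 in lung tumor 2. Siglech, the 1 tested gene of that list, had 13.5, 11.1 and 5.87 RPKM in the brain tumors, 0 in lung tumor 1 and 3.81 in lung tumor 2. It was not called. The part of any of these cells in the members' levels was not tested.

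Reads given to each species in lung tumor 1 were set side by side for genes of the carcinoma and for members. In that library KRT8, KRT18, MUC1 and EPCAM had 5557, 3235, 5686 and 1087 human reads and 6, 13, 1 and 2 mouse reads. KRT7 had 11 human and 7 mouse reads, and KRT19 had 2 and 40. IFITM3 had 4136 human and 163 mouse reads, ISG20 had 1324 and 10, BST2 had 0 and 56, and ISG15 had 395 and 9. As mouse levels, KRT18 was at 39.1 RPKM there, 11.5% of its human level, while Isg15 and Isg20 were each at 50.2. How far reads crossed between the species was not tested. In the brain tumors human GFAP, a gene of astrocytes, was at most 0.125% of the mouse level, whereas human MBP, which was also read in both lung tumors, was at 6.70% to 15.2%.

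Cancer and host were next compared within the same library, as log2(human RPKM + 1) minus log2(mouse RPKM + 1) of the same symbol. Each level is relative to the reads of its own species, and the gene lengths behind RPKM are not given. Sizes near 0 therefore carry little weight, and larger ones can also move with gene length. In the brain tumors 12 of 31 members were higher in the cancer cells and 6 were higher in the host. The 12 were DTX3L, IFI35, IFI44, IFI44L, IFIH1, IFITM2, IFITM3, IRF1, ISG15, ISG20, OAS3 and STAT2, and the 6 were BST2, IFI27, IFIT2, IRF7, MX2 and XAF1. Leaving out 1 brain tumor ended 4 of these calls: IRF1 and MX2 without any of the 3 (adjusted p = 0.0773 to 0.105 and 0.067 to 0.166), IFIH1 without brain tumor 1 or 3 (0.186 and 0.146) and IFI44 without brain tumor 3 (0.0969). Of 12434 gene pairs tested, 40.8% and 30.5% were, and the members' median was 0.29 against 0.31 over all pairs. The members as a whole were near the background, but they ranged from -4.16 to 6.26.

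OAS3 stood farthest toward the cancer cells, at 6.60, 5.51 and 6.67 in the brain tumors (mean 6.26, SE 0.66), then 1.49 in lung tumor 1 and 5.22 in lung tumor 2. ISG20 had 5.57, 5.09 and 4.98 in the brain tumors (mean 5.22, SE 0.22), against 2.41 and 2.52 in the lung tumors. IFITM2 had 3.70, 4.19 and 3.74 (mean 3.88, SE 0.28) and ISG15 4.28, 1.62 and 4.65 (mean 3.52, SE 0.63) in the brain tumors. All 4 were above 0 in all 5 libraries, as were IFI44L, STAT2 and DTX3L, 7 members in all, but in lung tumor 1 host Ifi44l and Dtx3l had 0 reads and the sign of IFI44L there was not measurable at this depth. The limma adjusted p in the brain tumors was 0.00014 for OAS3, 6.7e-06 for ISG20, 2.9e-05 for IFITM2 and 0.00194 for ISG15.

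At the other end, IFI27 had -4.44, -4.49 and -3.55 in the brain tumors (mean -4.16, SE 0.36), against -6.02 and -4.68 in the lung tumors. XAF1, with 1 recovered human read in brain tumor 1, 2 in lung tumor 2 and 0 in the other libraries, had -3.32, -4.18 and -3.02 in the brain tumors (mean -3.50, SE 0.39). BST2 had -3.88, -4.17 and -1.29 in the brain tumors (mean -3.11, SE 0.65), against -8.28 and -6.14 in the lung tumors. IFIT2 had -2.04, -2.47 and -2.16 (mean -2.23, SE 0.31), with -2.22 and -1.88 in the lung tumors. These 4 were below 0 in all 5 libraries, as were IFITM1, IRF7, MX2, IFIT3 and DDX58, 9 members in all. Implied gene lengths differed over 2 times between the species for 12 members. With reads scaled to the species' total alone in place of RPKM, an alternative chosen after seeing the data, 15 members were higher in the cancer cells and 8 in the host, where 32.2% and 32.6% of all pairs were, and the median was 0.84 against 0.02 over all pairs. IFI44 and IFIH1 lost their calls there (adjusted p = 0.0767 and 0.221). STAT2 fell from 3.03 to 0.84 and kept its call, and PARP9 rose from 0.15 to 2.06 and gained one. The sign turned with a call for DDX58, to 0.87 (0.0229), USP18, to 1.44 (0.0197), IRF9, to -1.44 (0.0344), and RSAD2, to -1.91 (0.00988). With a pseudocount of 0.1 the members' median was 0.84 against 0.36 over all pairs, so that the place of the members against the background moves with the scale. A shared symbol does not show that genes are each other's counterparts, which was not tested.

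**Figure D4:**
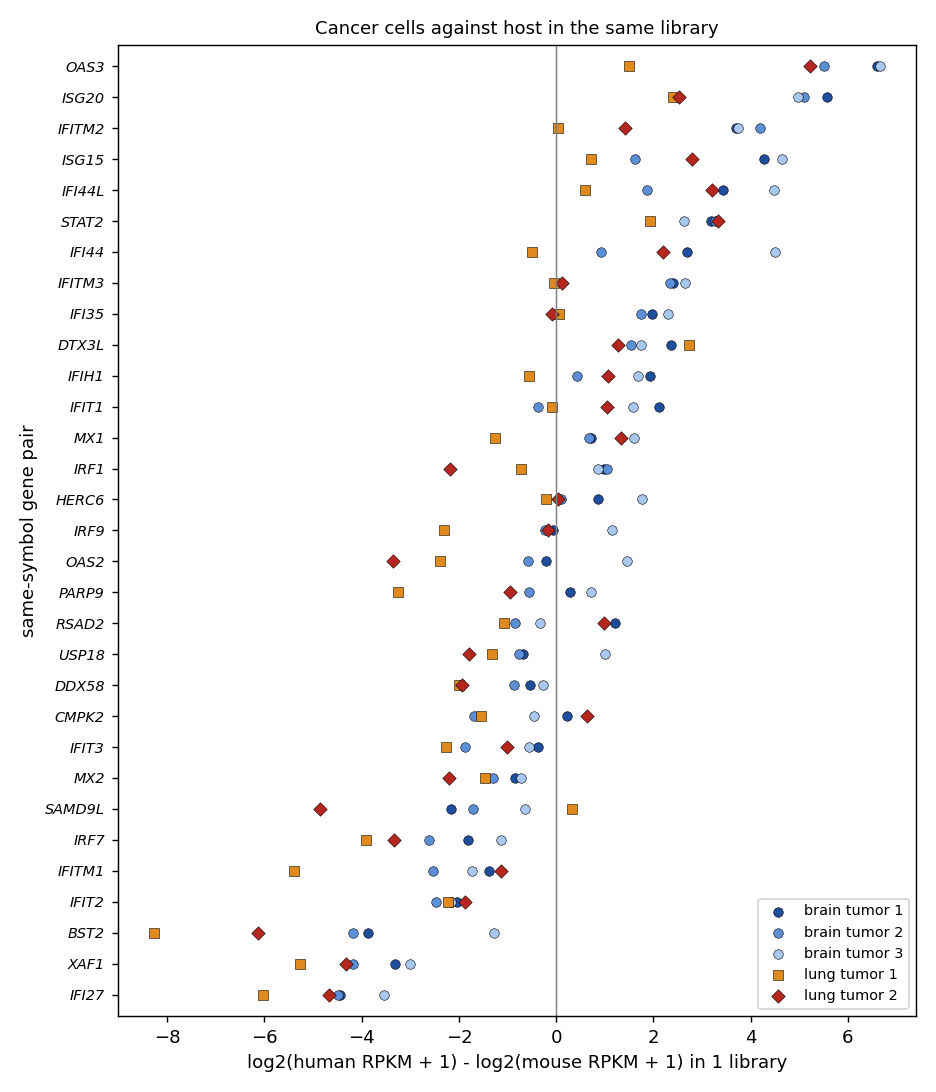
Each row is 1 same-symbol pair and each point 1 library, on an axis of log2(human RPKM + 1) minus log2(mouse RPKM + 1), so that points right of 0 are higher in the cancer cells; circles are brain tumors, squares lung tumor 1 and diamonds lung tumor 2. Rows run from IFI27 (mean -4.16 in the brain tumors) to OAS3 (6.26), and for ISG20, IFITM2, IFITM3, IFI35 and IRF1 all circles lie right of both lung tumors.

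The balance between cancer and host itself differed between the sites for 7 members, each shifted toward the cancer cells in the brain tumors and none toward the host. Of all pairs 8.46% were called in that direction and 11.4% in the other. The 7 were BST2, IFITM2, OAS2, ISG20, IFITM3, IRF1 and IFI35. The host genes of all 7 were called lower in the brain tumors, and none of the human genes was called. Human ISG20, IFI35, IFITM3 and IFITM2 differed by -1.09, -0.90, -0.88 and -0.56, brain minus lung. Their host genes differed by -3.84, -2.91, -3.32 and -3.72. Human IRF1 differed by 0.13 and BST2 by 1.04, and human OAS2 was too low to be tested. The members' median shift was 1.39, against 0.11 over all pairs, and for 16 members all brain tumors exceeded both lung tumors, as were 27.7% of pairs. For none did all brain tumors lie below both, against 25.1% of pairs.

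IFITM3 had differences of 2.41, 2.35 and 2.65 in the brain tumors, against -0.04 and 0.12 in the lung tumors, a shift of 2.43 (SE 0.28, limma adjusted p = 0.00298). The differences were near 0 in both lung tumors and at least 2.35 in each brain tumor. ISG20 shifted by 2.75 (SE 0.34, adjusted p = 0.00366). IFITM2, at 0.03 and 1.41 in the lung tumors, shifted by 3.16 (SE 0.45, adjusted p = 0.00525). IRF1 was the 1 member above 0 in all brain tumors (0.99, 1.05 and 0.87) and below 0 in both lung tumors (-0.72 and -2.19), with a shift of 2.43 (SE 0.48, adjusted p = 0.0157). IFI35 shifted by 2.02 (SE 0.41, adjusted p = 0.017).

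OAS2 shifted by 3.10 (SE 0.74, limma adjusted p = 0.0292) and BST2 by 4.10 (SE 1.03, adjusted p = 0.0338), and for both the human gene was low, at or under 1.74 RPKM for OAS2 and 3.49 for BST2. Without any 1 of the brain tumors 3 calls were left, IFITM2, IFITM3 and ISG20 each time. Without lung tumor 2 there were 14, and without lung tumor 1 there were 7, with BST2 lost (adjusted p = 0.0927) and SAMD9L added. The shifts are built from the same libraries as the differences within each species and are not separate evidence.

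The other genes of the pathway were read from lists. No gene for interferon alpha or beta was present in either table under the symbols looked up. Human IFNE, an epithelial type I interferon, had 1.10, 1.75 and 0.271 RPKM in the brain tumors, against 0.811 and 1.41 in the lung tumors, and IFNL1 was at or under 0.304. Host Ifng was at 0 except for 0.153 RPKM in lung tumor 2, and with 1 library above 0 its read number cannot be recovered. Absence of a ligand at these levels says only that it was not detected at this depth.

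Of 6 human receptor genes 0 were called. IFNAR1 was at 134, 116 and 95.3 RPKM in the brain tumors, against 90.8 and 136 in the lung tumors, and IFNGR1 at 56.6, 52.0 and 73.8 against 41.3 and 73.0. The receptor kinases JAK1, at 121, 131 and 183 against 64.7 and 244, and TYK2, at 130, 157 and 172 against 71.0 and 175, did not pass either (limma adjusted p = 0.913 and 0.683). Of the 5 tested host receptor genes 0 were called and all 5 were lower in every brain tumor, among them Ifnar2 at 36.7, 24.5 and 12.4 against 119 and 65.9 (adjusted p = 0.0505) and Ifngr1 at 137, 141 and 66.9 against 226 and 407.

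Negative regulators gave 0 of 6 calls in the cancer cells, with PTPN11 at 140, 140 and 183 RPKM in the brain tumors, against 39.9 and 183 in the lung tumors. In the host 1 of 6 was called: Socs3, an inhibitor of cytokine signalling, was lower in the brain tumors, falling from 301 and 245 in the lung tumors to 66.2, 60.1 and 93.0 (log2 difference -1.90, limma adjusted p = 0.0117). Of the genes that sense nucleic acids upstream of interferon 0 of 9 human genes were called, ADAR with 2008, 1613 and 1680.4 RPKM in the brain tumors, 504 in lung tumor 1 and 1898 in lung tumor 2. In the host 4 of 15 were lower in the brain tumors, Ikbke, Zbp1, Irf3 and Trim25, with differences of -3.34, -2.58, -2.25 and -2.01. Host Adar was higher in the brain tumors, at 82.9, 96.4 and 88.5 against 14.5 and 38.7 (adjusted p = 0.0348), and was named after its value was seen.

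A further list held interferon-induced genes that are no members. In the cancer cells 0 of 16 were called, and lung tumor 2 was the highest library for 13 of them. LGALS3BP, a secreted glycoprotein, had 382, 105 and 242 RPKM in the brain tumors, 72.1 in lung tumor 1 and 937 in lung tumor 2, and EIF2AK2, the kinase PKR, had 349, 182 and 368 against 56.3 and 371. In the host 6 of 18 were lower in the brain tumors and 0 higher, Psmb9 by -3.79, Sp110 by -3.53, Psmb8 by -3.52 and Sp100 by -3.09 among them. Psmb8 and Psmb9, subunits of the immunoproteasome, had 12.8, 9.29 and 2.99 and 12.4, 6.87 and 1.72 RPKM in the brain tumors. In the lung tumors they had 122 and 72.6, and 75.7 and 108.

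Genes more typical of interferon gamma gave 0 of 6 calls in the host, with Irf8 at 55.7, 49.0 and 18.8 RPKM in the brain tumors, against 99.3 and 118 in the lung tumors. Gbp4 was at 2.38, 1.11 and 0.288 in the brain tumors, at 0 in lung tumor 1 and at 51.1 in lung tumor 2. In the cancer cells 0 of 2 were called, GBP1 with 3.23, 5.37 and 1.76 against 0.660 and 13.8.

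Some absent members have mouse relatives under other symbols. Of 10 tested, 2 were lower in the brain tumors, Ifi27l2a with 31.9, 15 and 4.16 RPKM against 610 and 191 (log2 difference -4.62, limma adjusted p = 0.0171) and Oasl1 with 4.13, 3.81 and 0.722 against 32.2 and 12 (-2.58, adjusted p = 0.0477). Of 10 tested GTPases and IFI200 genes, families that are large in mice, 4 were lower and 0 higher, Ifi204 (-3.45), Ifi47 (-3.42), Ifi203 (-2.65) and Tgtp2 (-2.30). All 10 had negative differences.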

How the data were processed

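RNA sequencing of 3 brain tumors and 2 lung tumors gave 1 table per species, in which the authors deposited RPKM values. The builds in the submitters' processing notes are mm10 (GRCm38) for mouse and hg38 (GRCh38) for human. How reads were aligned, counted and split by species, and which lengths entered RPKM, is not stated in the sources at hand. Columns were joined to samples through the numbers in the sample descriptions, with 0 left unmapped. Whole reads recovered from the RPKM came out for 100% of genes in both species (tolerance 1e-06 reads) and are lower bounds. For the 4393 human and 3995 mouse genes above 0 in 1 library only, a whole number is certain and the reads are not fixed. Genes with 1 RPKM or more in at least 2 libraries were fitted with limma 3.58.1 (R 4.3.3) on log2(RPKM + 1) with an intensity trend. P-values are two-sided, with Benjamini-Hochberg adjustment over all genes or pairs tested, and under 0.05 is called. Differences are on the log2(RPKM + 1) scale, which understates low genes. The test was tried on simulated data.

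Named were, per species, the 8 members of highest mean, every called member and the 4 largest differences in each direction, likewise for cancer against host, and the 4 largest between the lung tumors. Of each list up to 4 called genes, or else the 2 of highest mean, were named. The members, lists and settings were chosen with earlier results of these data known. Alternatives were pseudocount 0.1, no filter, a filter at 5 RPKM, median-ratio scaling, voom on recovered reads, the replicate block and leaving out each library, and, added later, correction for gene length. Sequences were not used here.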

Additional observations from a re-analysis of the deposited data

Results flagged for a closer look

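For 7 members the signed log2 difference, cancer minus host, was higher in the brain tumors than in the lung tumors. The call was by limma's test of that shift, adjusted over all gene pairs. The size of the gap was smaller in the brain tumors for BST2 (mean -3.11, against -7.21 in the lung tumors), OAS2 (0.22 against -2.88) and IRF1 (0.97 against -1.46). The shift, brain minus lung on the log2 scale, was 4.10 for BST2, 3.16 for IFITM2, 3.10 for OAS2, 2.75 for ISG20, 2.43 for IFITM3, 2.43 for IRF1 and 2.02 for IFI35. The host genes of all 7 were called lower in the brain tumors, and none of the human genes was called between the sites. Human BST2 and OAS2 stayed at or under 3.49 and 1.74 RPKM.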

How the results depend on the processing

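In the cancer cells, brain minus lung gave 0 called members under each alternative except without lung tumor 2 (5, median 1.37; without lung tumor 1 the median was -1.21) and with the replicate number as a block (1, IFI44L). Leaving out 1 library moved the count from 0 to 5 and the median from -1.21 to 1.37. In the host the 12 calls became 5 without a filter, 4 with the block and 2 to 13 with 1 library left out. The host median became -0.61 without lung tumor 2, -2.12 without lung tumor 1 and -2.23 with voom. The shifts of cancer against host numbered 3 to 14 with 1 library left out. Median-ratio scaling moved the median over all genes from 0.09 to -0.03 in the cancer cells and from 0.08 to 0.21 in the host, and that of the members to -0.09 and -1.30. Without gene length, the sign of cancer against host in the brain tumors turned with a call for DDX58 (0.87), USP18 (1.44), IRF9 (-1.44) and RSAD2 (-1.91), and no other member's sign turned past the threshold in the 4 comparisons and the alternatives run. The replicate numbers are not shown to pair samples, as deviations of same-numbered samples correlated at -0.08 to 0.06. Host values of lung tumor 1 are limited most by depth, and 1 library per comparison decides several calls.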
